A study of Mus musculus with 3 samples.

Results

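The insulin-like growth factor (IGF) axis was described in mouse liver that expressed human YAP, as 10 genes: the ligands Igf1 and Igf2, the receptors Igf1r and Ghr, the acid-labile subunit gene Igfals, and the binding protein genes Igfbp1, Igfbp2, Igfbp3, Igfbp4 and Igfbp7. The members were chosen by gene name, and every non-control probe of these genes was used. They had 15 of the 55681 non-control probes and were 10 of the 20284 genes that could be named on the arrays. Igf1 had 4 probes, Ghr and Igfbp2 had 2 probes each, and the other genes had 1. Of the 10 genes, 9 were measured on all arrays with 14 probes, and Igf2 was not well above background on any of them.

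The data were 3 one-colour Agilent arrays hybridised with Cy3-labelled cRNA made from total liver RNA, 1 array for each of YAP (WT), YAP (1SA) and YAP (2SA). All livers came from the strain labelled c57BL6/J and carried the time label of 2 days. The human YAP cDNA had been delivered as a plasmid by hydrodynamic tail vein injection (HTVi), which forces a large volume of DNA solution into the liver, in young adult males per the study's methods. YAP is a transcriptional coactivator restrained by the Hippo pathway, and 1SA and 2SA are active mutants of it. The mouse AFP enhancer II and a minimal albumin promoter drove the transgene in hepatocytes, and HTVi reaches only part of them, so each RNA mixed transfected with untransfected cells. All 3 groups shared the injection, and no uninjected or empty-plasmid liver is among these arrays. The comparisons asked how the livers with either active mutant differed from the liver with YAP (WT).

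Each group held 1 array, whether from 1 animal or a pool was not stated, and no test between groups was possible. The 75th percentile of intensity was 290.8 for YAP (WT), 275.7 for YAP (1SA) and 319.5 for YAP (2SA), and between 28972 and 30784 probes were well above background. Intensity below is the background-subtracted brightness of a spot on a linear scale. A difference is given in log2 units with every array set relative to its 75th percentile, and the value after ± is the error of that difference from the image software's own error estimate. Over the 399 probes printed as 10 spots, the median SD between the spots of a probe on an array averaged 0.07. From this an SD of 0.10 was derived for a difference between single spots on different arrays. The limit of 1.96 times this derived SD, or 0.20, is called the repeat-spot limit. Both errors cover the array alone and not the spread between animals. The liver label was checked by hepatocyte markers, of which all 9 with a probe were well above background on the 3 arrays, with a median difference from YAP (WT) of 0.10 in YAP (1SA) and -0.12 in YAP (2SA). The arrays hold no check of the transgene itself.

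In the liver, growth hormone binds its receptor Ghr on hepatocytes and, through the kinase Jak2 and the transcription factor Stat5b, drives Igf1 and Igfals. Circulating IGF-1 is carried in a complex with Igfbp3 and the acid-labile subunit, and the smaller binding proteins Igfbp1, Igfbp2 and Igfbp4 hold further IGF and control its access to Igf1r. Insulin represses Igfbp1 through the kinase AKT and the transcription factor Foxo1, and Igf2 is a fetal growth factor that is silenced in mouse liver after birth.

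Promoter sequences of 3 genes are shown because the members differ in the regulatory letters near their start sites. Igfbp1 had the largest difference between arrays, and Igfbp2 was lower than YAP (WT) beyond the repeat-spot limit in both mutants. Igfals is a growth hormone target, as is Igf1, whose window is not printed and held none of the motifs listed below. Each sequence is the RefSeq window on GRCm38.p6 from 250 bases before to 50 bases after an annotated start, written 5′ to 3′ on the gene's strand. All are on the plus strand, Igfbp1 at chr11:7197537-7197836, the second annotated start of Igfals at chr17:24877981-24878280 and the first start of Igfbp2 at chr1:72824230-72824529. Capitals mark the matches found on either strand to 5 motifs: CAAAACA, the core of the insulin response sequence, its downstream part TTATTTTG, the forkhead core GTAAACA, the STAT core TTCNNNGAA and the TEAD core GGAATG.
Igfbp1: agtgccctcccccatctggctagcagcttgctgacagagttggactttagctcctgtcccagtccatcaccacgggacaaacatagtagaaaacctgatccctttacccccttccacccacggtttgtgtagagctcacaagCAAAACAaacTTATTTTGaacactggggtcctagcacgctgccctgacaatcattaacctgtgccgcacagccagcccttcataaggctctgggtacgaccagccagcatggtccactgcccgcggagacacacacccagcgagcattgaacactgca
Igfals: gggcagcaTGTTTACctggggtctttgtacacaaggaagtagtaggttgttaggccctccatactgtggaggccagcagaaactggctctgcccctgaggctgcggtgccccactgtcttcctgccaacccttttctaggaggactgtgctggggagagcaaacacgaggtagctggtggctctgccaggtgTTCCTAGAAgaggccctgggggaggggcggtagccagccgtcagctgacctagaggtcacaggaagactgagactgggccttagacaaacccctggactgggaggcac
Igfbp2: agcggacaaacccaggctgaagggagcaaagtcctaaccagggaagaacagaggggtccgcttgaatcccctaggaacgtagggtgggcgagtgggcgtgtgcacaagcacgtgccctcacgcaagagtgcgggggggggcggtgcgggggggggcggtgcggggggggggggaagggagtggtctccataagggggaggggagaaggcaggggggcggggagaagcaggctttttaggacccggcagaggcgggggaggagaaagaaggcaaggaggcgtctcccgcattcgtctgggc

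The Igfbp1 window held both CAAAACA, at position -108 counted from the annotated start, and TTATTTTG, at position -98. Of all 32851 windows in the table, 6.28% held the first, 1.66% the second and 0.189% both. No other window of the 17 belonging to the 10 genes held either. The second Igfals window held TTCNNNGAA, at position -58, and GTAAACA on the opposite strand, and the first Igfals window held another TTCNNNGAA. The shares of all windows were 8.3% for TTCNNNGAA, 3.65% for GTAAACA and 14.7% for GGAATG, which was present in 3 Igf2 windows and 1 Igfals window. The motifs were searched on both strands, no match overlapped another, and the Igf1, Ghr, Igf1r, Igfbp2, Igfbp3, Igfbp4 and Igfbp7 windows held none of them. A match of letters is a description and was not tested as a binding site.

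**Figure D1:**
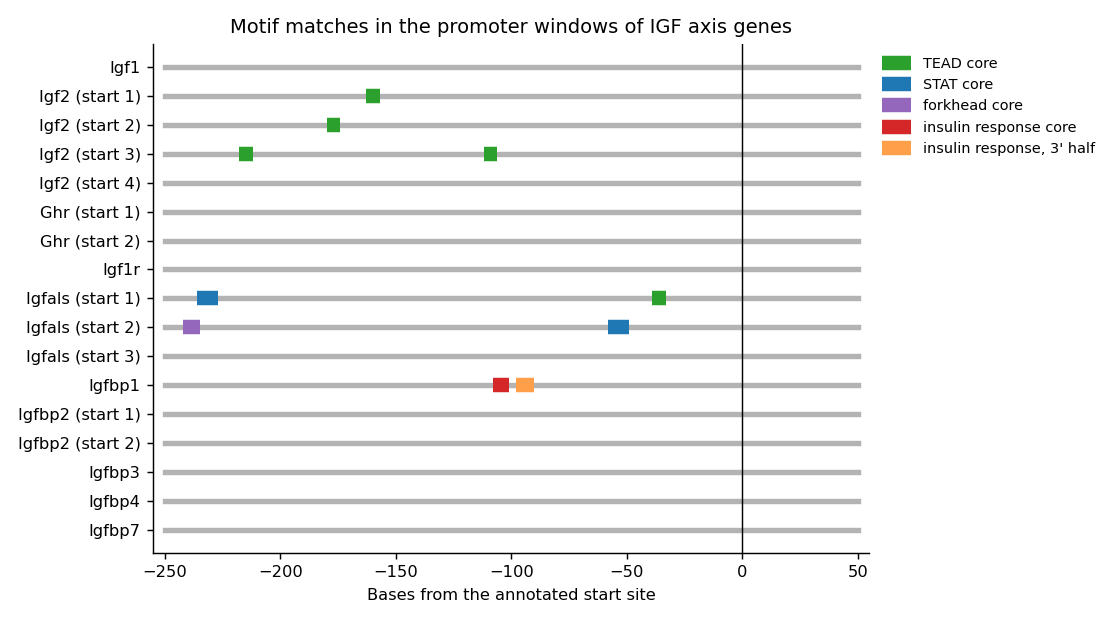
Motif matches in the 17 promoter windows of the 10 IGF axis genes. The x axis gives bases from the annotated start site (vertical line), each grey bar is 1 window of 300 bases, and coloured blocks are matches on either strand. The Igfbp1 window alone carries the CAAAACA and TTATTTTG matches.

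Both ligand genes were considered first. Igf1, the growth factor made by hepatocytes under growth hormone, had an intensity of 25308 in YAP (WT), 26456 in YAP (1SA) and 26110 in YAP (2SA) at its brightest probe (NM_010512). The second probe gave 23178, 22814 and 22737 in the same order, the third 5125, 5478 and 5284, and the fourth 488.6, 504.9 and 498.3. The 4 probes thus spanned a wide range of brightness, and at each of them the 3 arrays lay close together. Scaled to the 75th percentile, Igf1 differed from YAP (WT) by 0.12 (SD over 4 probes, 0.05) in YAP (1SA) and by -0.11 (SD 0.03) in YAP (2SA). All 8 spots of these probes were above YAP (WT) in YAP (1SA), by 0.05 to 0.18, and all 8 were below it in YAP (2SA), by -0.17 to -0.08. Probes of 1 gene on 1 array share the RNA and the scaling constant, so this uniformity is no replication. None of these differences passed the repeat-spot limit. That limit is for single spots and is wide for means over the 2 spots of each Igf1 probe or over its 4 probes.

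Igf2 had intensities of 3.50 in YAP (WT), 4.73 in YAP (1SA) and 5.29 in YAP (2SA) at its only probe (NM_010514). The lowest intensity of a probe well above background was 12.5, 10.3 and 5.94 on these arrays, so Igf2 was below the measured range on each and no fold is given.

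Among the receptors, Ghr, the growth hormone receptor, was higher in YAP (1SA) and near YAP (WT) in YAP (2SA). Its first probe (NM_001048178) read 9410 in YAP (WT), 12634 in YAP (1SA) and 10645 in YAP (2SA). Its second probe, on another RefSeq transcript (NM_010284), read 7482, 9943 and 8725. The scaled difference between YAP (1SA) and YAP (WT) was 0.50 ± 0.20 at the first probe, or 1.42-fold, and 0.49 ± 0.20 at the second, or 1.40-fold. Of all measured probes, 10.1% and 10.8% lay at least as far from 0 in this comparison. YAP (2SA) differed from YAP (WT) by 0.04 and 0.09 at these probes, and from YAP (1SA) by -0.46 and -0.40.

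Igf1r, the signalling receptor for both ligands, was dim on all arrays, with 58.6 in YAP (WT), 51.3 in YAP (1SA) and 60.6 in YAP (2SA) (NM_010513). The differences from YAP (WT) were -0.12 ± 0.24 and -0.09 ± 0.23, within the error of the probe. Igfals, which encodes the acid-labile subunit of the circulating complex, had 2001, 1995 and 1969 (NM_008340). Its differences were 0.07 ± 0.20 in YAP (1SA) and -0.16 ± 0.20 in YAP (2SA), with the same signs as Igf1. The log2 ratios of the 75th percentiles to that of YAP (WT) were -0.08 and 0.14, and scaling subtracts these from every probe. Without scaling, Igfals differed by -0.0048 and -0.023, and Igf1 at its brightest probe by 0.064 and 0.045. At the Igf1 probe that read 23178 in YAP (WT), the unscaled differences were -0.023 and -0.028, with the same signs as Igfals. At the Igf1 probes that read 5125 and 488.6 they were positive, at 0.096 and 0.044 and at 0.047 and 0.028. Whether the unscaled signs of Igf1 and Igfals are alike thus depends on the Igf1 probe. No probe of either gene was above YAP (WT) in YAP (1SA) and below it in YAP (2SA) without scaling.

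**Figure D2:**
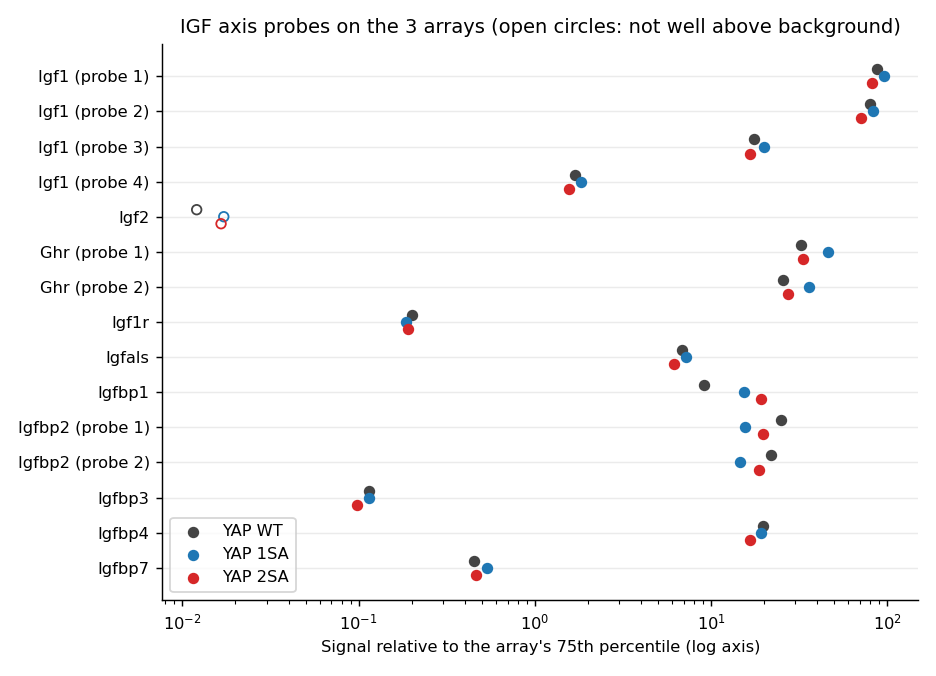
Signal of every IGF axis probe on each array, relative to that array's 75th percentile (log axis). Each point is 1 probe on 1 array and open circles are not well above background. The arrays separate most at Igfbp1, Igfbp2 and Ghr, whose ranges over the 3 arrays were 1.08, 0.68 and 0.50 in log2 units, and Igf2 lies below all other probes.

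The binding protein genes held the largest difference of the axis. Igfbp1, the insulin-repressed binding protein that also responds to stress and liver regeneration, had an intensity of 2657 in YAP (WT), 4233 in YAP (1SA) and 6150 in YAP (2SA) (NM_008341). It was lowest in YAP (WT), intermediate in YAP (1SA) and highest in YAP (2SA). The scaled differences were 0.75 ± 0.20 for YAP (1SA) over YAP (WT), or 1.68-fold, and 1.08 ± 0.20 for YAP (2SA) over YAP (WT), or 2.11-fold. YAP (2SA) was 0.33 ± 0.20 above YAP (1SA), or 1.25-fold. Of all measured probes, 3.87% lay at least as far from 0 as Igfbp1 in YAP (1SA) against YAP (WT), 1.38% in YAP (2SA) against YAP (WT) and 28.2% in YAP (2SA) against YAP (1SA). No other member probe followed the order YAP (WT), YAP (1SA), YAP (2SA).

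Igfbp2, an abundant binding protein of liver and fetal tissues, was lower in both mutants and lowest in YAP (1SA). Its first probe (NM_008342) read 7266 in YAP (WT), 4308 in YAP (1SA) and 6327 in YAP (2SA), and its second probe read 6343, 4001 and 5994. YAP (1SA) differed from YAP (WT) by -0.68 ± 0.20 at the first probe and -0.59 ± 0.20 at the second. YAP (2SA) differed by -0.34 and -0.22. Of all probes, 5.12% and 7.34% lay at least as far from 0 in YAP (1SA), but 20.1% and 34.8% did so in YAP (2SA). Markers of bile duct cells were also lower in YAP (1SA), where 6 of 6 were below YAP (WT), with a median of -0.78. Of all named genes, 49.7% were above YAP (WT) there. Krt7 and Epcam were dim, at 17.5 and 16.5 in YAP (1SA), and Cdh1 (-0.13) was inside the repeat-spot limit. The summed level of the 6 markers was 17.5 times the 75th percentile in YAP (WT), 8.24 in YAP (1SA) and 15.2 in YAP (2SA). Most of this sum was Spp1, at 12.2, 3.66 and 9.80, and without it the sums were 5.31, 4.58 and 5.36. The part of these cells in the Igfbp2 values was not tested. In whole liver RNA, fewer cells of a type and less RNA per cell cannot be told apart.

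Igfbp4, a binding protein that mostly restrains IGF action, read 5757 in YAP (WT), 5318 in YAP (1SA) and 5340 in YAP (2SA) (NM_010517), with scaled differences from YAP (WT) of -0.04 and -0.24 (± 0.20). Igfbp3, the main carrier in serum, which liver makes chiefly in non-parenchymal cells, was dim, at 33.1, 31.7 and 31.3 (NM_008343), with differences of 0.01 ± 0.26 and -0.22 ± 0.26. Igfbp7, a binding protein of low IGF affinity found in vessel walls and stroma, read 131.2, 148.3 and 147.9 (NM_001159518), with differences of 0.25 ± 0.21 and 0.04 ± 0.21. None of these 3 genes differed from YAP (WT) by much more than the error of its own probe.

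Markers of the non-parenchymal cells, which also make these binding proteins, were read beside them. All 9 measured stellate cell and fibroblast markers were below YAP (WT) in YAP (2SA), with a median of -0.60, while the median in YAP (1SA) was 0.10. Their summed level was 40.6, 37.8 and 27.3 times the 75th percentile in YAP (WT), YAP (1SA) and YAP (2SA), and 21.4, 17.1 and 14.4 without the brightest, Dcn. The 8 Kupffer cell markers had medians of -0.39 and -0.87 in YAP (1SA) and YAP (2SA), with summed levels of 253.2, 190.7 and 154.2. Without the brightest, Cd5l, the sums were 137.7, 104.6 and 89.8. In each mutant 5 of 8 were below YAP (WT) beyond the repeat-spot limit. Clec4f was above it in YAP (1SA), at 0.45. In YAP (2SA) Adgre1 (-0.16), Csf1r (-0.01) and C1qa (0.16) were inside the limit. The 9 sinusoidal endothelial markers had a median of -0.11 in each mutant, inside the repeat-spot limit, and summed levels of 88.6, 92.0 and 75.4. Without the brightest, Clec4g, the sums were 59.8, 60.9 and 56.3. In YAP (2SA) Lyve1 (0.37) and Pecam1 (0.35) were above the limit, and Clec4g (-0.59) and Stab2 (-0.21) were below it. The part of the non-parenchymal cells in the Igfbp3, Igfbp4 and Igfbp7 values was not tested.

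**Figure D3:**
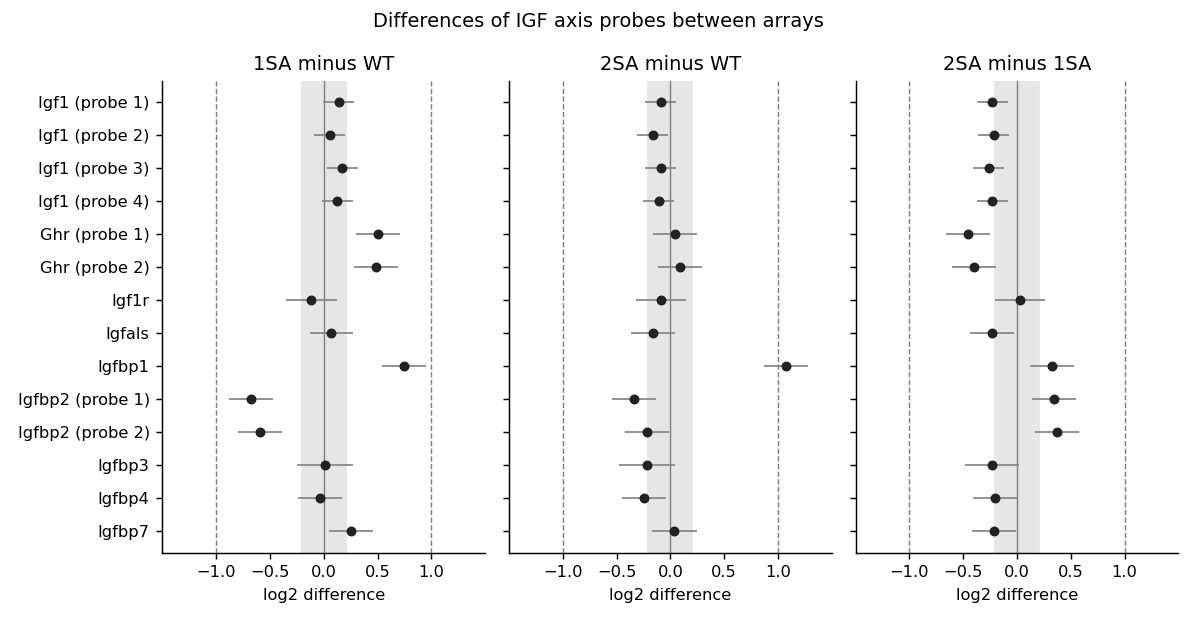
Difference in log2 units of every measured IGF axis probe in the 3 comparisons, on arrays scaled to their 75th percentiles. Each point is 1 probe and each bar is the error of the difference from the image software, the shaded band is the repeat-spot limit of 0.20 and dashed lines mark 2-fold. Igfbp1 lies furthest to the right in both comparisons with YAP (WT), at 0.75 and 1.08, and most other probes in YAP (2SA) against YAP (1SA) sit near -0.2.

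Counted over genes by their brightest measured probe, none of the 9 members was at least 2-fold higher or lower in YAP (1SA) than in YAP (WT), where 1.72% of all 28032 measured probes were. In YAP (2SA) against YAP (WT) 1 of 9 was, Igfbp1, which was just past the threshold, and the share of all 28290 probes was 1.65% either way and 0.923% higher. Between the mutants no member reached 2-fold, against 3.16% of 28851 probes. Beyond the repeat-spot limit lay 4 of 9 members in YAP (1SA) against YAP (WT) (Igfbp1, Ghr and Igfbp7 above, Igfbp2 below), where 35.5% of named genes did. In YAP (2SA) against YAP (WT) this also held for 4 of 9 (Igfbp1 above, Igfbp2, Igfbp3 and Igfbp4 below) against 35.3% of named genes. Igfbp3 was inside the limit with the array median (-0.201), the series matrix (-0.187) and normexp (-0.083), and Igfbp2 with normexp (-0.171), which left 2 of 9 there. The share of named genes beyond the limit under these settings is not given, so these counts have no background to be read against. The median over the 9 members was 0.07 and -0.09 in these comparisons, and that over all named genes was -0.0017 and -0.03. Both comparisons share the YAP (WT) array, so their values are not independent.

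In YAP (2SA) against YAP (1SA), 8 of 9 members lay beyond the repeat-spot limit, with 45.9% of named genes. Igfbp1 and Igfbp2 were above, and Igf1, Ghr, Igfals, Igfbp3, Igfbp4 and Igfbp7 were below. For Igf1, Igfals, Igfbp3, Igfbp4 and Igfbp7 the differences of -0.23, -0.23, -0.23, -0.21 and -0.22 were nearly equal. The image software's errors of these differences were 0.14, 0.20, 0.25, 0.20 and 0.21. Igfbp3 was thus within its own error, and Igfals, Igfbp4 and Igfbp7 were barely past theirs. The ratio of the 75th percentiles of these arrays was 0.21 in log2 units, and without scaling the same genes differed by -0.02, -0.02, -0.02, 0.01 and -0.0042. Under quantile normalisation the 5 differences ranged from -0.24 to -0.10, and over all named genes the scaled median was -0.03. Igfbp1, Igfbp2 and Ghr differed without scaling by 0.54, 0.55 and -0.25. Beyond the limit lay 5 of 9 members with quantile normalisation or normexp background correction, and 3 of 9, Igfbp1, Igfbp2 and Ghr, with the values of the series matrix. The share of named genes beyond the limit under these settings is not given. With normexp fewer of all probes were at least 2-fold different between the mutants, 1.13% against 3.16% in the main setting.

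**Figure D4:**
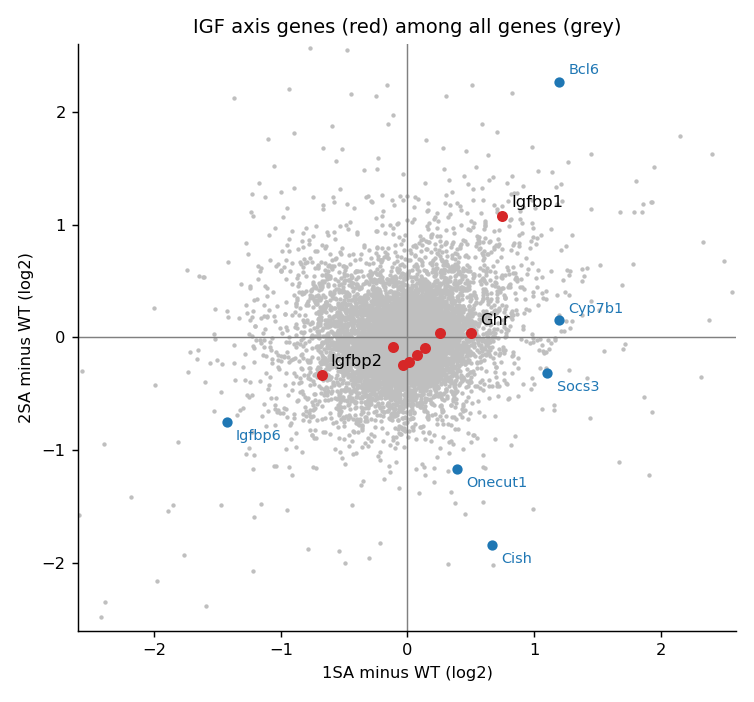
Difference from YAP (WT) of every measured named gene in YAP (1SA) (x axis) and YAP (2SA) (y axis), in log2 units. Grey points are the 13626 named genes, of which 13 lie beyond the axes at 2.6 and are not drawn, red points are the 9 measured IGF axis genes, and blue points are pathway genes named in the text. Igfbp1, at 0.75 and 1.08, lies furthest out of the red points, while the other members lie between -0.68 and 0.50 on the x axis.

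The 5 named genes nearest to Igfbp1 in both differences from YAP (WT), by Euclidean distance among 13151 genes, were Psmc3ip (0.76 and 1.06), Ckap2 (0.76 and 1.10), Top2a (0.71 and 1.11), Ncaph (0.81 and 1.04) and Pkmyt1 (0.81 and 1.05). Their distances were between 0.02 and 0.07. This likeness rests on 3 arrays.

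Further receptors, binding proteins, proteases and adaptors of the axis were examined as a list of 17 genes, of which 11 were measured on all arrays. Of named genes, 1.86% were at least 2-fold different in YAP (1SA) against YAP (WT), 1.67% in YAP (2SA) against YAP (WT) and 3.6% between the mutants. In this list, 1 gene was 2-fold lower in YAP (1SA) and none was 2-fold different otherwise. This gene was Igfbp6, a binding protein that prefers IGF-2, with intensities of 420.7 in YAP (WT), 148.3 in YAP (1SA) and 274.3 in YAP (2SA) and differences from YAP (WT) of -1.43 and -0.75. Like Igfbp2, it was lowest in YAP (1SA), as were the bile duct markers with their medians of -0.78 and -0.02, whose part in Igfbp6 was not tested. The highest value in YAP (1SA) was that of the receptor adaptor Grb10, 0.74, at a dim probe of 20.8, 33.0 and 23.8. In YAP (2SA) the insulin receptor substrate Irs2 was highest at 0.37, and the insulin receptor Insr (0.29) and the scavenging receptor Igf2r (0.28) followed. The median of the list was -0.06 in YAP (1SA) and 0.06 in YAP (2SA).

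Differences in the growth hormone signalling list reached further than those of the IGF genes. Of 14 genes 13 were measured, and 2 were at least 2-fold higher in YAP (1SA), while 1 was 2-fold higher and 2 were 2-fold lower in YAP (2SA). Cish, a STAT5-induced inhibitor of cytokine receptors, had intensities of 3229 in YAP (WT), 4869 in YAP (1SA) and 991.6 in YAP (2SA). It was above YAP (WT) by 0.67 in YAP (1SA) and differed from it by -1.84 in YAP (2SA). Bcl6, a repressor at STAT5 sites, was higher in both, with 544, 1184 and 2874 and differences of 1.20 and 2.27. Socs3, a feedback inhibitor of JAK kinases, was high in YAP (1SA) alone, with 805, 1644 and 709.6 and differences of 1.11 and -0.32. Onecut1, a liver transcription factor induced by growth hormone, had 326, 405.7 and 159.8, with differences of 0.39 and -1.17. Jak2 and Stat5b themselves differed from YAP (WT) by 0.01 and 0.13 in YAP (1SA) and by 0.04 and 0.17 in YAP (2SA). The list median was 0.09 and -0.02.

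All 11 growth hormone responsive liver genes of the list were measured. By their brightest probes, 10 of them were above YAP (WT) in each mutant, 8 in each beyond the repeat-spot limit. Probes of 1 gene did not always give the same reading in YAP (2SA). Lifr was 0.25 at its brightest probe, but -0.35 and 0.01 at its others. Egfr was 0.67 at its brightest probe, and 0.17 and 0.31 at its others. Of all named genes, 49.7% and 43.6% were above YAP (WT) in YAP (1SA) and YAP (2SA), and 35.5% and 35.3% lay beyond the limit on either side. The medians of the list were 0.54 in YAP (1SA) and 0.31 in YAP (2SA). Red blood cell markers had the same order, with 4 of 4 measured above YAP (WT) in each mutant, medians of 0.88 and 0.48 and summed levels of 71.2, 124.1 and 92.0 times the 75th percentile, and their part in these values was not tested. At least 2-fold higher in YAP (1SA) were the sterol hydroxylase gene Cyp7b1 (1.20), the adipokine gene Serpina12 (1.25 ± 0.31, at a dim probe of 20.2, 45.5 and 38.9) and the transporter gene Slco1a1 (1.03), and none was 2-fold higher in YAP (2SA), where these genes had 0.16, 0.81 and 0.60. Igf1 and Igfals, the members that growth hormone drives, were at 0.14 and 0.07 in YAP (1SA), below the median of this list.

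Along the insulin arm, 19 of 20 genes of PI3K, AKT and FOXO signalling were measured and none was 2-fold different in any comparison. Their medians were 0.12 in YAP (1SA) and -0.05 in YAP (2SA), the highest values being Foxo3 in YAP (1SA) (0.48 ± 0.38, at a dim probe) and Rictor, a subunit of mTORC2, in YAP (2SA) (0.41). All 12 FOXO1 and fasting responsive liver genes were measured, and again none was 2-fold different. Their medians were 0.21 and 0.01. In YAP (2SA) the highest was Pdk4, a brake on glucose oxidation, at 0.82, while the gluconeogenic genes Pck1 and G6pc had -0.27 and 0.29 and the amino acid catabolic gene Tat had -0.33. Igfbp1, at 1.08 in YAP (2SA), lay above every gene of this list.

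In the list of 8 Igf2 mRNA binding, imprinted and oncofetal genes, 7 had a probe and 3 were measured. Afp, the fetal serum protein, differed from YAP (WT) by -0.63 in YAP (1SA) and 0.13 in YAP (2SA). The mRNA binding protein gene Igf2bp2 differed by -0.62 and -0.09. The imprinted zinc finger gene Plagl1 differed by 0.01 and -0.49 at its brightest probe, and its other probes gave -0.60, -0.10 and -0.20 in YAP (2SA). None of the 3 genes was 2-fold different. Afp and Igf2bp2 were lowest in YAP (1SA), as the bile duct markers were, and the part of those cells was not tested.

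**Figure D5:**
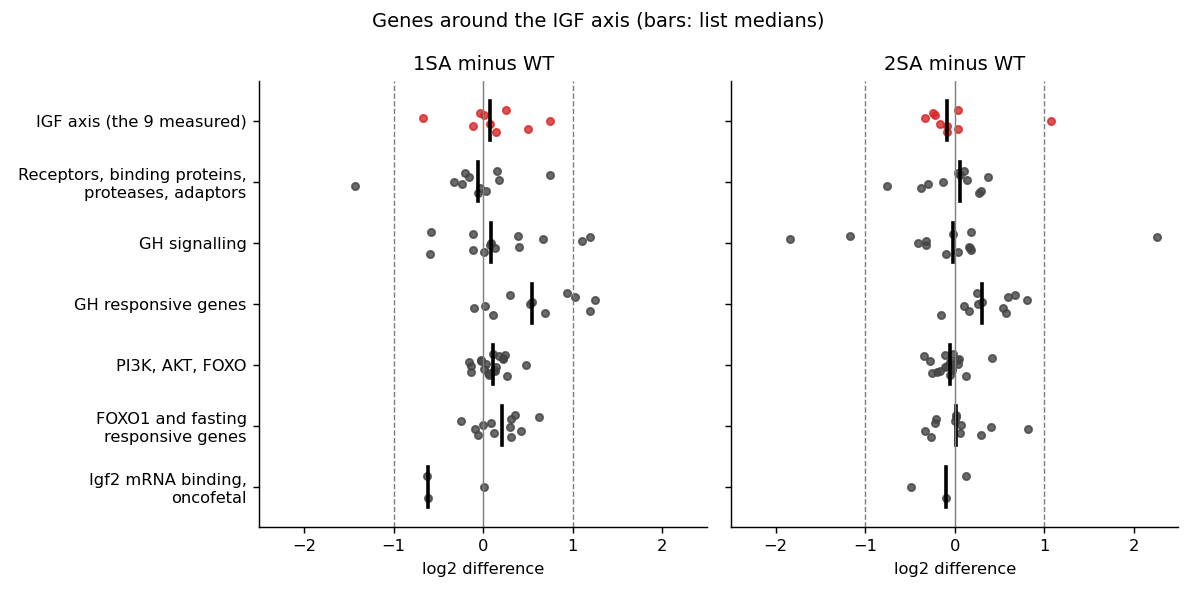
Differences from YAP (WT), in log2 units, of the genes of the 6 pathway lists in each mutant. Each point is 1 gene by its brightest measured probe, with the 9 measured IGF axis genes in red in the top row, each thick bar is a median and dashed lines mark 2-fold. The growth hormone signalling list has the widest spread, from -1.84 for Cish to 2.27 for Bcl6 in YAP (2SA), and the growth hormone responsive list has the highest medians, 0.54 and 0.31.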

How the data were processed

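The authors made Cy3-labelled cRNA from total RNA of mouse liver and hybridised it to 3 SurePrint G3 Mouse GE arrays. The deposited intensity of a spot was the processed signal of Agilent Feature Extraction 10.10.1.1, which is background-subtracted and not scaled between arrays, per the file headers. The deposited series matrix held the same intensity times 1 constant per array (3.02, 3.08 and 2.81 for YAP (WT), YAP (1SA) and YAP (2SA)), was used as an alternative, and has no stated source for these constants.

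Spots marked as non-uniform or population outliers were left out (148 to 182 per array), and none was saturated. Each probe took the mean log2 intensity of its spots, from which the 75th percentile of all spots on that array, in log2, was subtracted. A probe was measured where at least 50% of its spots were well above background. Probe RefSeq accessions were matched to a GRCm38.p6 gene table, which named 26762 of 55681 probes. A gene in a count was its brightest probe measured on all 3 arrays. The error after ± came from the software's error of the processed signal. Precision is limited by the number of arrays, as all 3 lay on 1 slide with 1 array per group, so no p-value was computed.

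The arithmetic was tested on simulated data. Named were all members, list genes past 2-fold, otherwise list extremes and a few pathway genes chosen after their values were seen, and the 5 genes nearest to the member with the largest range. The members and lists were chosen with earlier results of these data known. Alternatives were the array median, quantile normalisation, normexp on the median spot and background signals (limma 3.58.1 in R 4.3.3, offset 50), the series matrix, other filters, the mean of all probes, kept outlier spots and a 3-fold threshold. Promoter windows were those of RefSeq for GRCm38.p6, for which all 10 genes matched, while the array design was placed on mm9. Python 3.11.15, numpy 2.4.6 and pandas 2.3.3 were used.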

Additional observations from a re-analysis of the deposited data

Results flagged for a closer look

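No member of the IGF axis was flagged. Among the pathway lists, 3 genes of growth hormone signalling lay above YAP (WT) on the array of one mutant and below it on the other. Each was beyond the repeat-spot limit in both, and at least 2-fold in one of them. Of all named genes, 35.5% and 35.3% lay beyond the limit against YAP (WT) in YAP (1SA) and YAP (2SA), on either side. At least 2-fold different were 1.86% and 1.67%. The share of named genes that meets the whole rule is not given, so the 3 genes are not called unusual. Cish differed from YAP (WT) by 0.67 in YAP (1SA) and -1.84 in YAP (2SA), Onecut1 by 0.39 and -1.17, and Socs3 by 1.11 and -0.32. Over all processing settings that were run, these differences ranged from 0.62 to 0.70 and -1.85 to -1.75 for Cish, from 0.34 to 0.43 and -1.17 to -0.93 for Onecut1, and from 1.06 to 1.14 and -0.32 to -0.20 for Socs3. With normexp Socs3 in YAP (2SA) was -0.196, inside the limit of 0.205, and Onecut1 in YAP (2SA) was -0.93, under 2-fold. Neither mutant had a replicate, and this difference was not tested.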

How the results depend on the processing

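No paired analysis was possible because the groups had no replicates and no test was run. For the same reason no array could be left out, and the slide could not be used as a block because all arrays shared it. Of 207 member differences recomputed under the alternatives, 90 had the same value, since the filters, the outlier spots and the mean over probes did not touch them. Of the 117 that changed, 113 did so by less than the derived repeat-spot SD of a difference, 0.10. None past 2-fold turned its sign, and the largest change was 0.16. The sign near 0 differed for Igfbp3 in YAP (1SA) with the series matrix (-0.03) and Igfbp7 in YAP (2SA) with normexp (-0.0069). Igfbp1 in YAP (2SA) ranged from 1.08 to 1.10 and in YAP (1SA) from 0.70 to 0.78, Ghr in YAP (1SA) from 0.45 to 0.54 and Igfbp2 in YAP (1SA) from -0.72 to -0.57. With a 3-fold threshold, 0 members were higher in YAP (2SA) against YAP (WT).

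Normexp gave -0.57 and -0.17 for Igfbp2 in YAP (1SA) and YAP (2SA), where the other probe was the brightest, and -0.083 for Igfbp3 in YAP (2SA). Quantile normalisation gave -0.10 in YAP (2SA) against YAP (1SA) for Igf1 and for the growth hormone responsive median. List medians also moved. Without the filter, growth hormone signalling between the mutants went to -0.0863 and other IGF receptors and binding proteins in YAP (1SA) to -0.20. With the stricter filter, the fasting list between the mutants went to -0.30. The list of Igf2 mRNA binding, imprinted and oncofetal genes went in YAP (1SA) to 0.00389 without the filter and -0.13 with normexp. In YAP (2SA) this list went to 0.13 with the stricter filter. Between the mutants it went to 0.0958 with normexp and 0.76 with the stricter filter. The cause of these shifts was not tested.

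Probes at least 2-fold higher and lower numbered 209 and 273 in YAP (1SA) against YAP (WT), 261 and 207 in YAP (2SA) against YAP (WT), and 544 and 367 in YAP (2SA) against YAP (1SA). In the same order they numbered 54, 60, 68, 64, 144 and 91 at 3-fold, 2034, 2546, 1832, 2779, 2255 and 2649 without the filter, 83, 66, 94, 48, 216 and 111 with normexp, and 66, 68, 80, 36, 193 and 100 with the stricter filter. The higher share was 43.4%, 55.8% and 59.7% in these 3 comparisons. It was 55.7% in YAP (1SA) against YAP (WT) and 66.2% in YAP (2SA) against YAP (WT) with normexp, 39.7% in YAP (2SA) against YAP (WT) and 46.0% between the mutants without the filter, and 69.0% in YAP (2SA) against YAP (WT) with the stricter filter. Without the filter the median over all probes was -0.11, -0.15 and -0.19, a shift of -0.13, -0.12 and -0.14. Igf2 was not compared under any setting. Low signal limits Igf2, Igf1r and Igfbp3 most.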

Other observations

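Of the pathway list genes with a probe, 12 were not well above background on all 3 arrays. Of these, 9 were not well above background on any array, and 3 were well above it on the YAP (2SA) array alone. The share of all probes well above background on that array alone is not given. Igf2bp1, which encodes an oncofetal protein that binds Igf2 mRNA, had intensities of 3.17 in YAP (WT), 3.01 in YAP (1SA) and 24.2 in YAP (2SA). Stc2, which encodes an inhibitor of the protease that frees IGF from Igfbp4, had 10.8, 5.85 and 25.3. Foxo4, which encodes a transcription factor restrained by AKT, had 8.33, 6.01 and 14.3. The YAP (2SA) array also had the most probes well above background, 30784 against 28972 in YAP (WT) and 29705 in YAP (1SA). The lowest intensity of such a probe was 5.94 there, against 12.5 in YAP (WT) and 10.3 in YAP (1SA). The YAP (WT) readings of 10.8 for Stc2 and 8.33 for Foxo4 lay above this YAP (2SA) floor. The part of these array differences in the 3 calls was not tested.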
